A study of Mus musculus with 14 samples.

Results

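The 10 genes described here make up the core of the Nrf2 and glutathione antioxidant system. They were taken from the count table by gene symbol, and all 10 are among the 14084 genes of the count table. Gclc, Gclm, Slc7a11 and Gsr supply and recycle glutathione; Txnrd1, Srxn1 and Prdx1 belong to the thioredoxin and peroxiredoxin system; Nqo1 reduces quinones; Nfe2l2 encodes the transcription factor Nrf2, and Keap1 encodes its repressor. RNA was sequenced from cells sorted by flow cytometry as microglia from the cerebral cortex of C57BL/6 mice aged 8 to 10 weeks. In the stroke groups the distal middle cerebral artery was tied off permanently and the carotid arteries of both sides were occluded for 7 min. Cells were collected 1, 3, 7, 21, 60 and 90 days later, and sham mice had only a lesion of the skull surface. The labels give the same age for all 7 groups and no collection day for sham, so age at collection may differ between groups. Each of the 7 groups had 2 libraries, 14 in all. The labels do not say which sorting markers were used, how many animals went into a library, or whether a group's libraries stem from different mice. The p-values therefore measure the spread between these libraries, which may be technical.

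Nrf2 drives many genes of defence against oxidants through antioxidant response elements in their promoters. Under resting conditions Keap1 holds Nrf2 in the cytoplasm and hands it over for degradation; oxidants and electrophiles modify Keap1, Nrf2 builds up, and its target genes are switched on. Control of Nrf2 is therefore largely at the level of the protein, so the transcript levels of Nfe2l2 and Keap1 need not follow the activity of the pathway. Glutathione is made from cysteine, which enters the cell as cystine through the transporter Slc7a11, by the ligase of Gclc and Gclm. Microglia, the resident macrophages of the brain, make reactive oxygen species when activated, as do neutrophils and monocytes that enter the tissue after a stroke.

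Total counts per library were 15254983 to 28758420 in replicate 1 and 100625099 to 191692779 in replicate 2 of the 7 groups, so the replicate number also separates shallow from deep libraries. Levels of single genes are given as CPM, a gene's count relative to its library's total after adjustment by the trimmed mean of M values (TMM). The summed levels of markers are CPM without this adjustment, so they are not on the scale of the gene levels. The TMM factors ran from 0.674 in day 60 replicate 2 to 1.35 in day 21 replicate 1. A gene was called at an adjusted p under 0.05 in edgeR's quasi-likelihood test, with Benjamini-Hochberg adjustment over 13861 genes, and all 10 genes entered that test. Markers of the sorted cell type did not match the label equally in all groups. The summed level of 10 microglial markers, none of them at 0 in any library, was 433 to 709 CPM in the 2 sham libraries and 1291 to 23653 CPM in the 12 stroke libraries, with the lowest stroke value in day 1 replicate 2. The 9 measured neutrophil markers summed to 16565 and 28978 CPM in sham, against 362 to 6412 CPM in the stroke libraries. The 7 monocyte markers summed to 5870 and 12091 CPM in sham and to 173 to 7812 CPM in the stroke libraries. The 3 measured erythroid markers summed to 200 to 207 CPM in sham and to 0 to 4.43 CPM after stroke. For 6 endothelial markers the sham libraries lay apart, at 46.9 and 1496 CPM, against 18.8 to 307 CPM after stroke. Sums for border-associated macrophages, B cells, T and NK cells, oligodendrocytes, astrocytes and neurons overlapped between sham and stroke libraries. Every comparison with sham below carries these differences in markers. Their part in the results was not tested, and fewer cells of a type cannot be told apart from less RNA per cell.

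Promoter sequences are shown for the 3 genes that were called higher together on days 1 and 3, Gclm, Txnrd1 and Srxn1, and for Prdx1, whose levels at these days were also above sham. Each is the 250 bases before an annotated start site in RefSeq (build GRCm38.p6), written 5′ to 3′ on the gene's strand. All are on the plus strand, at chr3:122245307-122245556 for Gclm, chr10:82858956-82859205 for Txnrd1, chr2:152105274-152105523 for Srxn1 and chr4:116685349-116685598 for Prdx1. Capitals mark the letters TGACNNNGC, the core of the antioxidant response element, or TGANTCA, the core of the AP-1 element, on either strand.

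Gclm: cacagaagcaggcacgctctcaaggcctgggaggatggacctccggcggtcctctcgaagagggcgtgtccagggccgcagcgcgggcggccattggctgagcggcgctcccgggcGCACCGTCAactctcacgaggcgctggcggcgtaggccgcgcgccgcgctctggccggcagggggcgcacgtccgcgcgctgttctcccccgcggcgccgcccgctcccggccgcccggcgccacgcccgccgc
Txnrd1: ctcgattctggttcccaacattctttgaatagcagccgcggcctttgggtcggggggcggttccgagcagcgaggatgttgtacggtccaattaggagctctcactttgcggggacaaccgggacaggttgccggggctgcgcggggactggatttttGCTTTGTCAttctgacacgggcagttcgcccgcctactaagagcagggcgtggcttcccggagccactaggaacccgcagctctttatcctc
Srxn1: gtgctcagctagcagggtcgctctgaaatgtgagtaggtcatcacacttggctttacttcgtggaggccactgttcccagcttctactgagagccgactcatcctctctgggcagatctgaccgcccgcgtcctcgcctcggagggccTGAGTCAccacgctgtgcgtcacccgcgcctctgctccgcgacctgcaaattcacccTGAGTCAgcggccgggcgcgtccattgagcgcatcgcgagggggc
Prdx1: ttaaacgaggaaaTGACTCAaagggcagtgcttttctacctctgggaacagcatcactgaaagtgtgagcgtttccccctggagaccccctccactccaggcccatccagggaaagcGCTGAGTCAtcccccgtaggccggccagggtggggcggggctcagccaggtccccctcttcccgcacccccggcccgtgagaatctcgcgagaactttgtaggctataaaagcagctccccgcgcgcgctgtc

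The antioxidant core letters begin 134 bases before the start site in Gclm, 92 bases before it in the second of 3 Txnrd1 windows, and 133 bases before it in Prdx1, where they share bases with an AP-1 core; all 3 lie on the minus strand of the window. Srxn1 holds AP-1 cores that begin 102 and 45 bases before its start and an antioxidant core after the start, from base 29 to base 37, which lies outside the stretch printed. Prdx1 has a further AP-1 core that begins 237 bases before its start, and Nfe2l2 itself has an antioxidant core that begins 240 bases before its start. RefSeq's table gave windows for 8 of the 10 genes, with Gclc and Gsr the ones not matched. In these windows, which run from 250 bases before to 50 after the start, 5 of the 8 genes hold the antioxidant core and 2 hold the AP-1 core, in 5 and 2 of their 10 windows. Of all 32851 windows in the table, 12.4% hold the antioxidant core and 7.81% the AP-1 core; by gene, 14% and 8.97% of 27025 genes have a window with it. A match of letters is a description of the sequence and does not show that a factor binds there.

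Against sham, the number of the 10 genes called was 3, 4, 4, 1, 3 and 2 from day 1 to day 90. These counts were not tested against each other. On day 1, 3 genes were higher (Gclm, Txnrd1 and Srxn1) and 0 were lower, where 3.18% of all genes tested were called higher and 1.37% lower by edgeR; 7 of the 10 had an unadjusted p under 0.05, as did 21.8% of all genes. DESeq2 and limma-voom called 4 of the 10 each, none of them lower, where they called 14.4% and 4.34% of all genes. On day 3 the same 3 genes were higher and Gsr was lower, against 5.2% and 3.07% of all genes. On day 7, Gclc and Srxn1 were higher and Slc7a11 and Gsr were lower, against 7% and 5.63% of all genes. On day 21 only Gsr was called, as lower, against 5% of all genes called higher and 1.44% lower. On day 60, Srxn1 and Prdx1 were higher and Gsr was lower, against 4.96% and 2.89% of all genes, and on day 90 Srxn1 was higher and Gsr lower, against 5.12% and 2.73%. Nqo1, Nfe2l2 and Keap1 were called at none of the 6 times, by edgeR or in any of the 21 alternative fits of each comparison, DESeq2 and limma-voom among them. The median log2 fold change of the 10 genes was 1.62 on day 1, 1.04 on day 3, 0.67 on day 7, -0.08 on day 21, 0.92 on day 60 and 0.79 on day 90, beside medians of 0.04, 0.15, 0.06, 0.06, 0.14 and 0.11 over all genes tested. The 6 comparisons share the sham libraries, so a low or high sham value enters all of them. Leaving out either sham library ended 16 of the 17 calls; only Gsr on day 7 remained called, with adjusted p = 0.0223 without sham replicate 1 and 0.0284 without sham replicate 2 (edgeR).

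**Figure D1:**
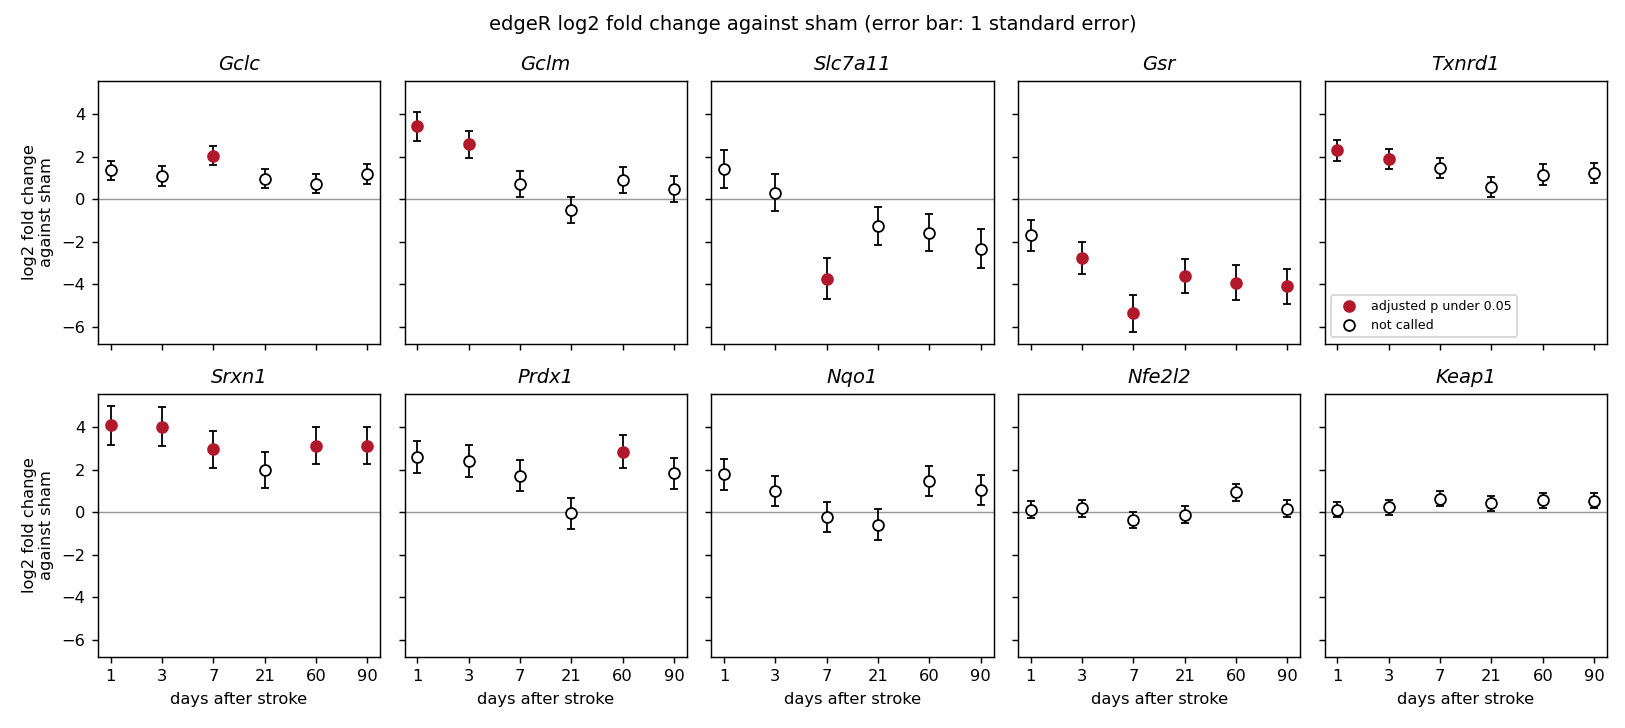
Each panel shows 1 gene: the edgeR log2 fold change against sham (vertical axis) at each time after stroke in days (horizontal axis), with bars of 1 standard error and filled red points where the adjusted p was under 0.05. Srxn1 is above 0 and Gsr below 0 at all 6 times, Gclm is called on days 1 and 3, and Slc7a11 is called only on day 7, at -3.73.

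Gclc encodes the catalytic subunit of glutamate-cysteine ligase, the enzyme of the rate-limiting step of glutathione synthesis. Its sham level was 21.4 and 21.0 CPM. After stroke it was 36.4 and 71.9 CPM on day 1, 29.5 and 60.6 on day 3, 82.3 and 94.0 on day 7, 36.6 and 45.9 on day 21, 37.5 and 32.8 on day 60, and 46.9 and 49.8 on day 90 (replicates 1 and 2). All 12 stroke libraries were above both sham libraries, and both day 7 libraries were above every other library. The difference from sham was called on day 7, with a log2 fold change of 2.06 ± 0.46 (SE) and adjusted p = 0.0166 (edgeR); without day 7 replicate 1 or 2 the adjusted p was 0.0666 and 0.0768. At the other 5 times the log2 fold change was 0.73 to 1.35 and did not pass. In the order of the group means, the only neighbours whose libraries did not overlap were day 7 with the next group, day 1, and day 60 with sham.

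Gclm encodes the modifier subunit of the same ligase, which raises its affinity for glutamate and eases feedback inhibition by glutathione. Its level was 38.4 and 43.6 CPM in sham, 263 and 621 on day 1, and 399 and 93.6 on day 3. It was then 58.9 and 74.8 CPM on day 7, 35.9 and 22.3 on day 21, 78.3 and 74.9 on day 60, and 55.1 and 58.1 on day 90. The day 1 and day 3 libraries were the 4 highest of the 14, and both day 21 libraries were below both sham libraries. Gclm rose 10.8-fold on day 1 (log2 fold change 3.43 ± 0.67, adjusted p = 0.0155, edgeR), and the call held without either day 1 library. On day 3 the log2 fold change was 2.59 ± 0.64 with adjusted p = 0.0304, and it was 1.19 with adjusted p = 0.234 without day 3 replicate 1. On days 7, 21, 60 and 90 it was 0.71, -0.49, 0.90 and 0.46, none of which passed. The subunits of 1 enzyme had their highest group mean at different times, Gclm on day 1 (442 ± 253 CPM, SD, n = 2) and Gclc on day 7 (88.1 ± 8.24 CPM, SD, n = 2).

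Slc7a11 encodes the light chain of the cystine and glutamate exchanger, which brings in the cystine for glutathione. Its level was 114 and 64.8 CPM in sham, 82.1 and 400.2 on day 1, and 180.4 and 41.1 on day 3. It was 7.46 and 6.00 CPM on day 7, 62.9 and 11.9 on day 21, 37.8 and 22.6 on day 60, and 19.6 and 16.2 on day 90. The libraries of days 1 and 3 lay on both sides of sham, while all 8 later libraries lay below both sham libraries and the 2 day 7 libraries were the lowest of all. Slc7a11 fell on day 7, with a log2 fold change of -3.73 ± 0.97 and adjusted p = 0.0281 (edgeR); the adjusted p was 0.143 without day 7 replicate 1 and 0.164 without day 7 replicate 2. At the other times the log2 fold change was 1.44 ± 0.88 on day 1, 0.31 ± 0.87 on day 3, -1.25 ± 0.88 on day 21, -1.56 ± 0.89 on day 60 and -2.32 ± 0.91 on day 90, none of which passed. On day 90 it did pass with DESeq2 (adjusted p = 0.0328) and in an edgeR fit of the compared groups alone (adjusted p = 0.0143). The values of days 1 and 3 each rest on 1 library: the log2 fold change was -0.12 without day 1 replicate 2 and -1.11 without day 3 replicate 1. Day 1 replicate 2, the highest library for Slc7a11, also had a neutrophil marker sum of 5595 CPM and a monocyte marker sum of 7812 CPM, against 1024 and 1332 CPM in day 1 replicate 1; the part of these cells in the Slc7a11 level was not tested.

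Gsr encodes glutathione reductase, which returns oxidised glutathione to its reduced form using NADPH. Its level was 3016 and 3575 CPM in sham. It was 396 and 1646 CPM on day 1, 579.7 and 393 on day 3, 73.7 and 86.6 on day 7, 454 and 93.4 on day 21, 222 and 213 on day 60, and 185 and 200.3 on day 90. All 12 stroke libraries were below both sham libraries. Gsr fell at 5 of the 6 times (edgeR): the log2 fold change was -2.76 ± 0.77 on day 3 (adjusted p = 0.0473), -5.36 ± 0.87 on day 7 (adjusted p = 0.00439), -3.59 ± 0.80 on day 21 (adjusted p = 0.0242), -3.92 ± 0.81 on day 60 (adjusted p = 0.0164) and -4.10 ± 0.82 on day 90 (adjusted p = 0.0134). On day 1 the log2 fold change was -1.69 ± 0.74 with adjusted p = 0.209. Leaving out either library of the group ended the call on day 3 (adjusted p = 0.132 and 0.217), day 60 (0.111 and 0.145) and day 90 (0.123 for each), as did leaving out replicate 1 on day 7 (0.0513). Without day 21 replicate 2 the day 21 value was -2.86 with adjusted p = 0.111. Upper-quartile scaling gave adjusted p = 0.0502 on day 3, and a fit of the compared groups alone gave 0.203 on day 21. The sham libraries, highest for Gsr, were also highest for the neutrophil markers. On days 1, 3 and 21 the library with more Gsr was also the one with more neutrophil marker RNA, 5595 against 1024 CPM on day 1, 3294 against 645 CPM on day 3 and 6412 against 802 CPM on day 21. On day 7 the neutrophil sums were 362 and 852 CPM where Gsr was 73.7 and 86.6 CPM. On day 60 the order was the other way: the sums were 741 and 802 CPM where Gsr was 222 and 213 CPM. On day 90 the sums were 3547 and 3127 CPM where Gsr was 185 and 200.3 CPM. The sums are without the TMM adjustment and the Gsr levels are with it. The TMM factors of the 2 day 90 libraries were 1.26 and 1.04, and the order on day 90 depends on whether both are put on 1 scale. The part of neutrophil RNA in the Gsr level was not tested.

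**Figure D2:**
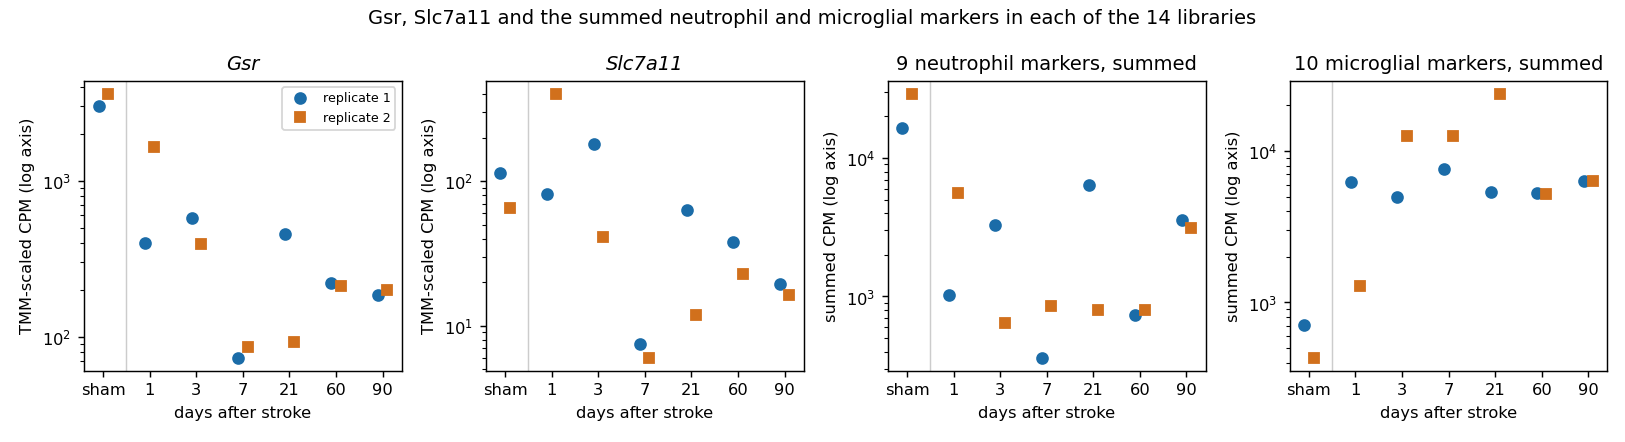
The panels show, for each of the 14 libraries, the TMM-scaled CPM of Gsr and Slc7a11 and the summed CPM of 9 neutrophil and 10 microglial markers, on log axes, by group (sham and days after stroke), with circles for replicate 1 and squares for replicate 2. The sham libraries are highest for Gsr (3016 and 3575 CPM) and for the neutrophil markers (16565 and 28978 CPM) and lowest for the microglial markers (709 and 433 CPM).

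Txnrd1 encodes cytosolic thioredoxin reductase, a selenoprotein that keeps thioredoxin reduced. Its level was 69.5 and 56.3 CPM in sham, 202 and 420.0 on day 1, 262 and 206 on day 3, and 216 and 131 on day 7. It was 119.8 and 68.5 CPM on day 21, 148 and 134 on day 60, and 155 and 137 on day 90. Of the 12 stroke libraries, 11 were above both sham libraries, and day 21 replicate 2 lay between them. Txnrd1 rose on day 1 (log2 fold change 2.30 ± 0.49, adjusted p = 0.0226, edgeR) and on day 3 (1.89 ± 0.48, adjusted p = 0.0339). Without day 1 replicate 2 the day 1 value was 1.68 with adjusted p = 0.061, and without day 3 replicate 1 or 2 the day 3 value was 1.71 or 2.06 with adjusted p = 0.111 and 0.0821. In a fit of the compared groups alone the adjusted p was 0.072 on day 1 and 0.0695 on day 3. On day 7 the log2 fold change was 1.46 ± 0.48 with adjusted p = 0.0644; DESeq2 gave adjusted p = 0.0317 there, and upper-quartile scaling 0.0475.

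Srxn1 encodes sulfiredoxin, which repairs overoxidised peroxiredoxins such as the product of Prdx1. Its level was 9.09 and 4.94 CPM in sham, 116 and 121 CPM on day 1, 186 and 41.1 on day 3, and 84.1 and 25.2 on day 7. It was 36.5 and 19.0 CPM on day 21, 89.7 and 33.0 on day 60, and 90.6 and 31.4 on day 90. All 12 stroke libraries were above both sham libraries, and replicate 1 was the higher library in 6 of the 7 groups. Srxn1 rose at 5 of the 6 times, by a log2 fold change of 4.08 ± 0.92 on day 1 (adjusted p = 0.0277, edgeR) and 4.02 ± 0.91 on day 3 (adjusted p = 0.0220). On day 7 it was 2.97 ± 0.87 (adjusted p = 0.0447), on day 60 it was 3.13 ± 0.88 (adjusted p = 0.0494), and on day 90 it was 3.12 ± 0.88 (adjusted p = 0.0498). The last 3 lie close to the threshold: limma-voom gave adjusted p = 0.0677, 0.0584 and 0.0548, DESeq2 size factors in edgeR gave 0.0527 and 0.0514 on days 60 and 90, and a fit of the compared groups alone gave 0.0538 on day 7. Leaving out replicate 1 of the group lowered the log2 fold change to 2.56 on day 3, 1.85 on day 7, 2.24 on day 60 and 2.20 on day 90, with adjusted p of 0.114, 0.26, 0.216 and 0.258. Leaving out replicate 2 gave adjusted p = 0.0598 on day 7, 0.0971 on day 60 and 0.0780 on day 90, and leaving out day 1 replicate 1 gave 0.0839. On day 21 the value was 1.99 ± 0.84, which did not pass. With the replicate number added to the edgeR fit as a block, the adjusted p was lower. It was 0.00666, 0.00713 and 0.00695 on days 7, 60 and 90. On day 21 it was 0.0311 with the block, and 1 of the 21 alternative fits called that time.

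Prdx1 encodes a peroxiredoxin that breaks down hydrogen peroxide with the help of thioredoxin. Its level was 151 and 333 CPM in sham, 2057 and 873 on day 1, 2038 and 536 on day 3, and 669.6 and 921 on day 7. It was 162 and 305 CPM on day 21, 1106 and 2369.9 on day 60, and 672 and 1055 on day 90. The 2 day 21 libraries lay within the range of sham, and the other 10 stroke libraries were above it. Prdx1 rose on day 60 (log2 fold change 2.85 ± 0.77, adjusted p = 0.0430, edgeR), and this became 2.19 with adjusted p = 0.252 without day 60 replicate 2; without day 60 replicate 1 the adjusted p was 0.0825. On days 1 and 3 the log2 fold change was 2.60 ± 0.76 and 2.41 ± 0.75 with adjusted p = 0.0771 and 0.0697; DESeq2 gave adjusted p = 0.00528 and 0.00814, and limma-voom 0.0472 and 0.0473. Of the 50-base words of the Prdx1 transcript, 10.9% also occur in 3 other genes, Gm21399 among them, so the authors' counting could have assigned some of its reads elsewhere; for each of the other 9 genes the share was under 1%.

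Nqo1 encodes a quinone reductase whose induction is a standard readout of Nrf2 activity. Its level was 2.49 and 2.58 CPM in sham, 6.58 and 11.0 on day 1, and 8.55 and 1.63 on day 3. It was 2.18 and 2.17 CPM on day 7, 1.79 and 1.60 on day 21, 5.78 and 8.31 on day 60, and 5.62 and 4.79 on day 90. Both libraries of days 1, 60 and 90 were above sham, both of days 7 and 21 were below it, and those of day 3 lay on either side. The log2 fold change was 1.80 ± 0.73 on day 1, 0.99 ± 0.72 on day 3, 1.48 ± 0.72 on day 60 and 1.04 ± 0.72 on day 90, with adjusted p from 0.179 to 0.408 (edgeR), and -0.22 and -0.58 on days 7 and 21. The day 3 value rests on 1 library and was -0.63 without day 3 replicate 1.

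Nfe2l2 encodes Nrf2 itself. Its level was 337 and 313 CPM in sham, 389 and 319.9 on day 1, 451 and 291 on day 3, and 241 and 264 on day 7. It was 301 and 299.8 CPM on day 21, 696 and 549 on day 60, and 408 and 322 on day 90. The 2 day 60 libraries were the highest of the 14 and the 2 day 7 libraries the lowest, and no time passed the test against sham. The largest log2 fold change was 0.94 ± 0.40 on day 60 (adjusted p = 0.157, edgeR), and the other 5 ran from -0.36 to 0.19. Keap1 encodes the repressor that marks Nrf2 for degradation. It had 45.4 and 32.9 CPM in sham, 46.1 and 39.1 on day 1, 43.0 and 48.8 on day 3, and 62.3 and 58.9 on day 7. It was 55.7 and 48.7 CPM on day 21, 65.1 and 50.4 on day 60, and 58.8 and 55.4 on day 90. No neighbours in the order of its group means were free of overlap, and its log2 fold change was 0.12 to 0.63 with a standard error of 0.36 at each time. With standard errors of this size, the test does not show that Nfe2l2 and Keap1 were unchanged.

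**Figure D3:**
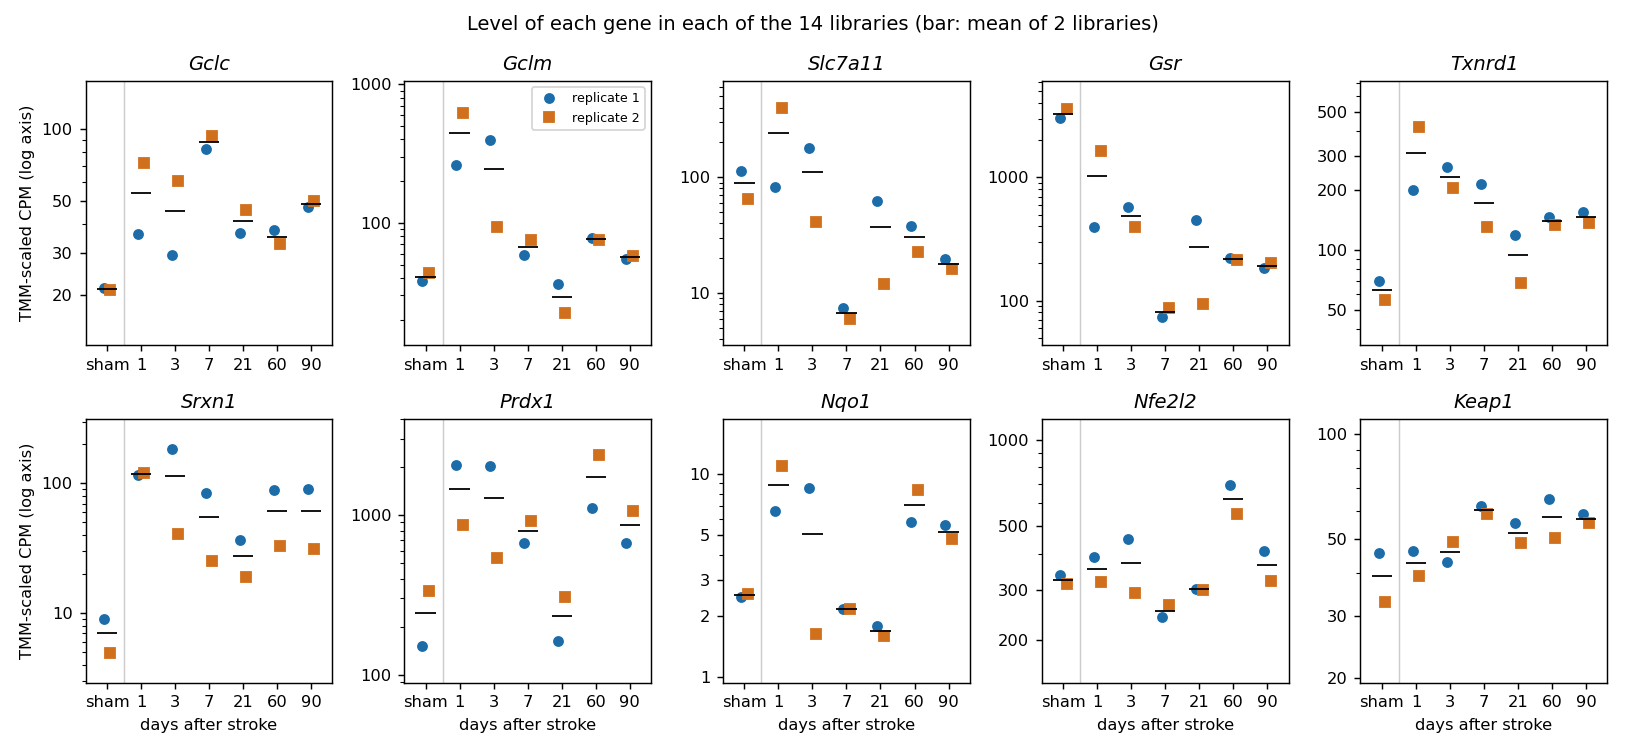
Each panel shows the TMM-scaled CPM (log axis) of 1 gene in each of the 14 libraries by group, sham and days after stroke; circles are replicate 1, squares replicate 2 and bars the mean of the 2 libraries. Gclm, Srxn1 and Txnrd1 have their highest means on day 1, Gclc on day 7, and Prdx1 and Nfe2l2 on day 60, while Gsr is highest in sham.

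Levels of different genes were compared per kilobase of the longest protein-coding transcript annotated in GENCODE (GRCm38). Over the 14 libraries the median was highest for Prdx1, at 337 CPM per kilobase, followed by Nfe2l2 at 129.6 and Gsr at 115. Txnrd1 had 39.3 CPM per kilobase, and Srxn1, Keap1 and Gclc lay between 12.2 and 13.8, with Gclm just below them. Slc7a11 had 4.28 and Nqo1 had 2.37. In sham alone the order began with Gsr at 1233 CPM per kilobase and ended with Nqo1 at 1.63. The spread over libraries also differed: between the lowest and the highest library, Keap1 ran from 9.10 to 18.0 CPM per kilobase, Nfe2l2 from 97.4 to 281, Gclm from 3.99 to 111, and Slc7a11 from 0.651 to 43.4.

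A comparison that leaves sham out set the 4 libraries of days 1 and 3 against the 4 of days 60 and 90. Gclm was higher early, with a log2 fold change of 2.33 ± 0.45 and adjusted p = 0.0178 (edgeR), and its lowest early library, 93.6 CPM, was above its highest late library, 78.3 CPM. Slc7a11 was also higher early, with a log2 fold change of 2.81 ± 0.66 and adjusted p = 0.0432, and its lowest early library, 41.1 CPM, was just above its highest late library, 37.8 CPM. Of all genes tested, 0.844% were higher early and 1.77% lower. Gsr, Txnrd1 and Keap1 did not overlap between the periods either, at 1.78 ± 0.52, 0.91 ± 0.33 and -0.38 ± 0.25. They did not pass (edgeR, adjusted p = 0.104, 0.192 and 0.516). The share of all genes whose libraries separate the periods is not given here, so these separations are descriptions only. For Srxn1 and Prdx1, called on day 60 against sham, the early to late difference was 0.92 ± 0.57 and 0.16 ± 0.51 with overlapping libraries, and for Nqo1, Gclc and Nfe2l2 it lay between -0.39 and 0.26. The number of the 10 genes called, 2, was 0 without day 1 replicate 2, day 3 replicate 1 or any 1 of the 4 late libraries, and 1 without either sham or either day 7 library, which enter only through the shared estimate of the spread. Over the early libraries the microglial markers summed to 1291 to 12595 CPM and the neutrophil markers to 645 to 5595 CPM; over the late libraries the sums were 5225 to 6345 CPM and 741 to 3547 CPM. The part of this difference in cell markers was not tested.

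Day 7 was set against days 1 and 3 in the same way. None of the 10 genes was called by edgeR, where 0% of all genes were called higher and 0.00721% lower; 5 of the 10 had an unadjusted p under 0.05, as did 8.46% of all genes. DESeq2 called 3 of the 10 and 2.85% of all genes, and limma-voom called 0 of the 10 and 0.195% of all genes. The log2 differences were -4.60 ± 0.97 for Slc7a11, -3.14 ± 0.74 for Gsr, -2.30 ± 0.59 for Gclm, -1.62 ± 0.66 for Nqo1 and 0.83 ± 0.37 for Gclc. Between day 7 and the 2 earlier times, the libraries of these genes other than Nqo1 did not overlap. Those of Nfe2l2 (-0.52 ± 0.35) and Keap1 (0.45 ± 0.30) did not either, with unadjusted p = 0.163 and 0.161 (edgeR). The share of all genes without such overlap is not given here, so these separations are descriptions only. In a joint test over all 7 groups, Gsr (adjusted p = 0.00996), Gclm (adjusted p = 0.0125) and Slc7a11 (adjusted p = 0.0374) were called by edgeR, beside 7.21% of all genes.

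The wider pathway was described with 77 further genes in 5 lists: control of Nrf2 (10 genes), supply of glutathione (11), use of glutathione (25), the thioredoxin system (12) and other targets of Nrf2 (19). All 77 were tested by edgeR, and alternative fits are not given for them. Called higher and lower were 4 and 0 on day 1, 4 and 4 on day 3, 6 and 7 on day 7, 4 and 4 on day 21, 7 and 6 on day 60, and 6 and 5 on day 90. As shares of the 77, 5.19% were higher on days 1, 3 and 21, 7.79% on days 7 and 90 and 9.09% on day 60; the lower share was 0% on day 1, 5.19% on days 3 and 21, 9.09% on day 7, 7.79% on day 60 and 6.49% on day 90. The shares of all genes are those given above for each time. The median log2 fold change of the 77 was 0.62, 0.52, 0.26, -0.20, 0.59 and 0.23 from day 1 to day 90; with Gstt1 and Cth, which had 0 counts in sham, set to their bounds or left out where that group was at or under 3 counts, it was 0.62, 0.52, 0.26, -0.25, 0.57 and 0.22.

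Of the glutathione supply list, Slc3a2, the heavy chain that pairs with Slc7a11 at the membrane, was higher at all 6 times. Its level was 110 and 181 CPM in sham and 359 to 1318 CPM after stroke, with a log2 fold change from 1.94 ± 0.53 (adjusted p = 0.0492) on day 21 to 2.87 ± 0.55 (adjusted p = 0.0137) on day 1, edgeR. Its partner Slc7a11 was called only on day 7, in the other direction. Chac1, which breaks glutathione down inside the cell, was lower on days 3, 7, 60 and 90, with 31.6 and 21.0 CPM in sham and 0.291 and 0.132 CPM on day 7. Ggt5, a surface enzyme of glutathione breakdown, was lower on days 7, 60 and 90, with 52.1 and 49.3 CPM in sham and 3.29 to 7.18 CPM at those times. Ggct was lower on day 7, at a log2 fold change of -2.38 ± 0.71.

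In the glutathione use list, every gene called against sham was higher. The transferase Gstt1 had 0 counts in both sham libraries and 0.484 to 5.82 CPM in the stroke libraries; against a floor of 3 counts over the sham group it was at least 67.4-fold higher on day 1, 29.7-fold on day 3, 32.5-fold on day 7, 65.4-fold on day 21, 172.7-fold on day 60 and 126.5-fold on day 90, and it was called at all 6 times. Gpx3, a secreted glutathione peroxidase (log2 fold change 4.82 ± 1.04), and the transferase Gstm5 (3.52 ± 0.94) were higher on day 7, and the transferases Gstt2 (3.92 ± 0.93) and Gstk1 (2.95 ± 0.76) were higher on day 60. In the thioredoxin list, Txnip, an inhibitor of thioredoxin, was lower on days 3, 7 and 60; it had 1001 and 649 CPM in sham and 46.5 to 149.6 CPM at those 3 times. Sesn2, a sestrin, was lower on days 3, 7, 60 and 90, with 134 and 85.7 CPM in sham and 11.5 to 32.1 CPM at those times, while Sesn1 was higher on days 7 and 90 (2.74 ± 0.70 and 2.62 ± 0.70). Prdx5 was lower on day 7 (-2.76 ± 0.77), at 121 and 256 CPM. Its sham libraries lay apart, at 598 and 1952 CPM. Txn1, the cytosolic thioredoxin, was lower on day 21 (-3.51 ± 0.86), at 42.7 and 58.3 CPM. Its sham libraries also lay apart, at 230 and 918 CPM. In the control list, Cul3, the ubiquitin ligase scaffold that works with Keap1, was lower on days 3 and 60 (-1.61 ± 0.42 and -1.54 ± 0.42), and the other 9 were called at no time.

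Of the other targets of Nrf2, Hmox1, the haem-degrading oxygenase, had 57.1 and 88.2 CPM in sham, 1422 and 2065 on day 1, and 2080 and 279 on day 3. It was 233 and 147 CPM on day 7, 103 and 141 on day 21, 243 and 246 on day 60, and 160.1 and 164 on day 90. Like Gclm it was called on days 1 and 3, at log2 fold changes of 4.58 ± 0.81 (adjusted p = 0.0101, edgeR) and 4.02 ± 0.79 (adjusted p = 0.0120), and at no later time. Sod2, the mitochondrial superoxide dismutase, was higher on days 1, 3 and 60 (1.86 ± 0.46, 1.75 ± 0.46 and 1.84 ± 0.46). Ephx1, microsomal epoxide hydrolase, was higher on days 7, 21, 60 and 90, with 4.61 and 5.69 CPM in sham and 21.1 to 136 CPM at those times. Sod3, the extracellular superoxide dismutase, was higher on day 21 (5.71 and 5.40 CPM) and on day 90 (3.52 and 1.73 CPM). In sham it had 0.182 and 0.261 CPM, near the 0.197 CPM that 3 counts are worth in sham replicate 1 without the TMM adjustment. Blvrb, a biliverdin reductase, was higher on day 60. Pgd, an enzyme of the pentose phosphate pathway, was lower on days 21, 60 and 90, and Taldo1, another, on days 7, 21 and 90; G6pdx and Tkt of the same pathway were called at none of the 6 times, with adjusted p from 0.0708 to 0.257 and from 0.198 to 0.873. Between the early days 1 and 3 and the late days 60 and 90, 4 of the 77 were called and are named here after their values were seen: Hmox1 (2.85 ± 0.53) and Prdx6 (2.26 ± 0.52) were higher early, and Ephx1 (-4.67 ± 0.62) and Cat (-1.26 ± 0.28) were lower early.

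**Figure D4:**
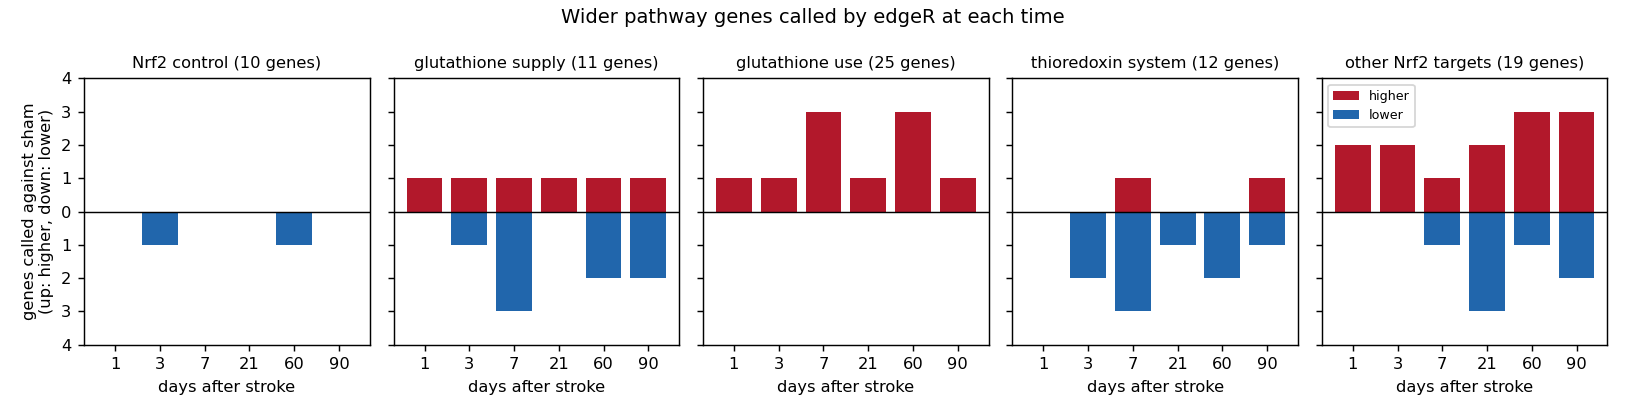
Each panel is 1 of the 5 lists of the wider pathway; red bars above 0 count the genes called higher against sham and blue bars below 0 those called lower (edgeR, adjusted p under 0.05), by days after stroke. The glutathione use list has bars above 0 only, and Slc3a2 gives the 1 gene above 0 in the glutathione supply list at every time.

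For each of the 10 genes, the genes most like it were taken by Pearson correlation of log2 CPM over the 14 libraries, among 7599 genes whose mean log2 CPM was 3 or more. These are descriptions of libraries that share group, depth and cell markers. The gene most like Gclm was Hmox1 (r = 0.943, and 0.953 over the 12 stroke libraries), followed by Hmces and Hilpda. For Srxn1 they were Sh3pxd2b (r = 0.935), Tmem189 (0.933) and Cd93 (0.906), and Tmem189 was also the gene most like Txnrd1 (0.911). For Gsr they were Pde4b (0.966), Gm5150 (0.957) and Diap1 (0.948), and for Slc7a11 they were Tarm1 (0.943), Ehd1 (0.932) and Nfil3 (0.928). For Prdx1 they were Chchd3 (0.969), Apool (0.948) and Clpp (0.946), and for Gclc they were Heatr3 (0.938), Telo2 (0.932) and Eif3b (0.930). The values were lower for Nqo1, with Dok2 at 0.815 and the ferritin heavy chain gene Fth1 at 0.811, and for Nfe2l2, with Cfl2 at 0.870. For Keap1 the gene most like it was Fbxo21 (0.912). None of the 10 genes was among the 3 genes most like another of them. For Nqo1 this was fixed beforehand, as its mean log2 CPM was under 3 and it was not among the genes searched.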

How the data were processed

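Raw counts per gene were deposited by the authors for 14 libraries of sorted mouse microglia. Per the submitters' processing notes, Bowtie2 2.3.4.2, HTSeq 0.6.1 and the build mm9 were used; the sources used here give neither the annotation nor the strand setting, so reads of Gclm, Slc7a11, Txnrd1 and Keap1 cannot be told apart from those of genes annotated on the opposite strand.

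Counts were fitted with edgeR 4.0.16 in R 4.3.3: TMM scaling, filterByExpr (13861 of 14084 genes kept), 1 mean per group over all 14 libraries with a shared spread (7 residual degrees of freedom, common biological coefficient of variation 0.639), robust quasi-likelihood F tests and Benjamini-Hochberg adjustment over all genes tested. Named were all 10 members, up to 4 called genes per list and time with the largest changes, Hmox1, and the 3 most like genes per member. The members and lists were chosen with earlier results of these data known. Alternatives were other scaling factors, no filter, DESeq2 1.42.0, limma-voom 3.58.1, a replicate block, fits of the compared groups alone and leaving out each library. On simulated data, 19% to 34% of 8-fold and 61% to 67% of 64-fold changes were recovered over the 6 comparisons with sham. The simulation changed 100 genes by each fold, alike in all 6 stroke groups. It held no replicate effect and no difference in cell markers, so recovery in the real data may differ. Transcript lengths and shared words came from a GRCm38 annotation.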

Additional observations from a re-analysis of the deposited data

Results flagged for a closer look

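A test of the difference itself flagged Gclm and Slc7a11: the effect at days 1 and 3 differed from the effect at days 60 and 90. The log2 fold change between these periods was 2.33 for Gclm and 2.81 for Slc7a11, each higher early (edgeR, adjusted p = 0.0178 and 0.0432). Both calls depended on single libraries, as given above for this comparison. Over the 21 alternative fits the log2 fold change was 1.63 to 2.68 for Gclm and 2.04 to 3.18 for Slc7a11. All 4 early libraries were above all 4 late libraries for each gene, where the share of all genes separated in this way is not given. With 2 libraries per group, no group was large enough for a check of single libraries that stand apart.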

How the results depend on the processing

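Against sham, 17 of 60 results for the 10 genes were called. Leaving out the filter changed none; DESeq2 and the replicate block lost none and added 4 and 2; DESeq2 size factors lost 2, upper-quartile factors lost 1 and added 1, limma-voom lost 3 and added 2, and fits of the compared groups alone lost 4 and added 2. Upper-quartile factors moved the median log2 fold change of all genes by 0.13 on day 3, 0.15 on day 7, 0.22 on day 21, 0.10 on day 60 and 0.20 on day 90. The number called on day 21 was 1, and became 2 with the replicate block and 0 in the fit of the compared groups. On day 90 it was 2, and became 1 with DESeq2 size factors and with limma-voom and 4 in the fit of the compared groups. For day 7 against days 1 and 3 DESeq2 called 3 (and 362 of all genes, against 1 by edgeR). In the joint test it called 8 and the replicate block 5, against 3, while the calls over all genes were 3515 and 1635, against 999. Leaving out 1 library at a time gave 0 to 3 called on day 1, 0 to 5 on day 3, 0 to 5 on day 7, 0 to 1 on day 21, 0 to 3 on day 60, 0 to 2 on day 90, 0 to 3 for the early against the late days, 0 to 2 for day 7 against days 1 and 3, and 1 to 4 in the joint test; fewer libraries leave fewer degrees of freedom, and a lone library is assumed to vary like the other groups.

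Only uncalled results changed sign. For Slc7a11 on day 3 the log2 fold change was -0.024 with limma-voom, for Nqo1 on day 3 it was -0.14 with limma-voom, and with upper-quartile factors it was 0.19 for Prdx1 and 0.10 for Nfe2l2 on day 21. Over the fits that leave out 1 library, the range was -0.12 to 2.17 for Slc7a11 on day 1, -1.11 to 1.02 for Slc7a11 on day 3, -0.57 to 0.63 for Prdx1 on day 21, -0.63 to 1.76 for Nqo1 on day 3, -0.017 to 0.26 for Nfe2l2 on day 1, -0.15 to 0.47 for it on day 3, -0.17 to 0.026 for it on day 21, and -0.094 to 0.38 for Keap1 on day 1. The cause was not tested. Libraries with the same replicate number had deviations that correlated at 0.071 to 0.677 over genes, and 20 of 21 pairs were over 0.1. As nothing in the labels ties the numbers to a shared animal or batch, the main fit did not pair the libraries. A difference shared by the replicate numbers therefore stays in its estimate of the spread. Such a difference is seen in the data. The second principal component (18.0% of the variance) was positive in all 7 replicate 1 libraries and negative in all 7 replicate 2 libraries. Depth splits the libraries in the same way, so number and depth cannot be told apart. The block raised the calls over all genes from 631 to 1195 on day 1 and from 1751 to 2766 on day 7. The replicate block moved the count of the 10 genes called from 4 to 5 on day 7 and left it at 3, 4, 3 and 2 on days 1, 3, 60 and 90. In the shallowest library, sham replicate 1, 3 counts are worth 0.197 CPM without the TMM adjustment, against 2.49 CPM with it for Nqo1.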
